A study of Homo sapiens with 4 samples.

Results

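The 38 genes described here encode nucleolar proteins that make ribosomes, together with MYC, the transcription factor that drives many of them. They were taken by name from the array, where they are 38 of 43317 gene names, and a gene with several probes is represented by the probe with the highest mean log2 signal over the 4 arrays. That rule for the probe used no treatment contrast, but the 38 names were proposed with earlier results of these data known. Each of the 38 passed the scanner's test of being well above background on every array, and none had a saturated spot. RNA came from HCT116, a line grown from a colorectal cancer, and from A549, a line grown from a lung cancer. Cells of each line received either the microRNA miR-891b or the negative control small RNA NC1, carried by the lipid reagent Dharmafect1, and the labels give neither a dose nor a time after transfection. HCT116 was grown in McCoy's 5A and A549 in DMEM. Each of the 4 groups is 1 one-colour array hybridised with 100 ng of total RNA, so no difference within a line has a replicate check and no p-value is given for it. Both arrays of a line lay on 1 slide, so slide, medium and cell line cannot be told apart.

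Ribosomes are built in the nucleolus. RNA polymerase I transcribes a long precursor RNA, which small nucleolar ribonucleoproteins (snoRNPs) modify at chosen bases, those with box C/D guides by methylating the ribose and those with box H/ACA guides by making pseudouridine. The small subunit processome then folds and cuts the part that becomes the small ribosomal subunit, and other factors, GTPases among them, assemble the large subunit. In cancer cells this programme tracks growth, and MYC binds the sequence CACGTG, called an E-box, in the promoters of many of its genes.

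The mature miR-891b sequence is shown because the comparison within each line is a comparison with and without this RNA. RefSeq places it at chrX:146001100-146001121 on the minus strand of GRCh38.p14. Capitals mark the seed, bases 2 to 8, through which a microRNA pairs with its targets.
miR-891b: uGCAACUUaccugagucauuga
The DNA letters that pair with the seed are AAGTTGC. They occurred in none of the 52 array probes of the 38 genes, and in 95 of the 23219 probes (0.409%) that all 4 arrays measured above background. At that share most sets of 52 probes would hold none, so the absence does not set these genes apart. Probes are 60 bases long and sample a small piece of a transcript, and whole transcripts were not searched here.

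Levels are log2 processed signals minus the 75th percentile of the array, so that a level of 0 is the signal of the 75th percentile. A change is the miR-891b level minus the NC1 level. The 3 comparisons below share arrays: the difference between the lines uses the NC1 arrays from which the changes are also taken. In bulk RNA a smaller number of cells of some kind and less RNA per cell cannot be told apart.

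**Figure D1:**
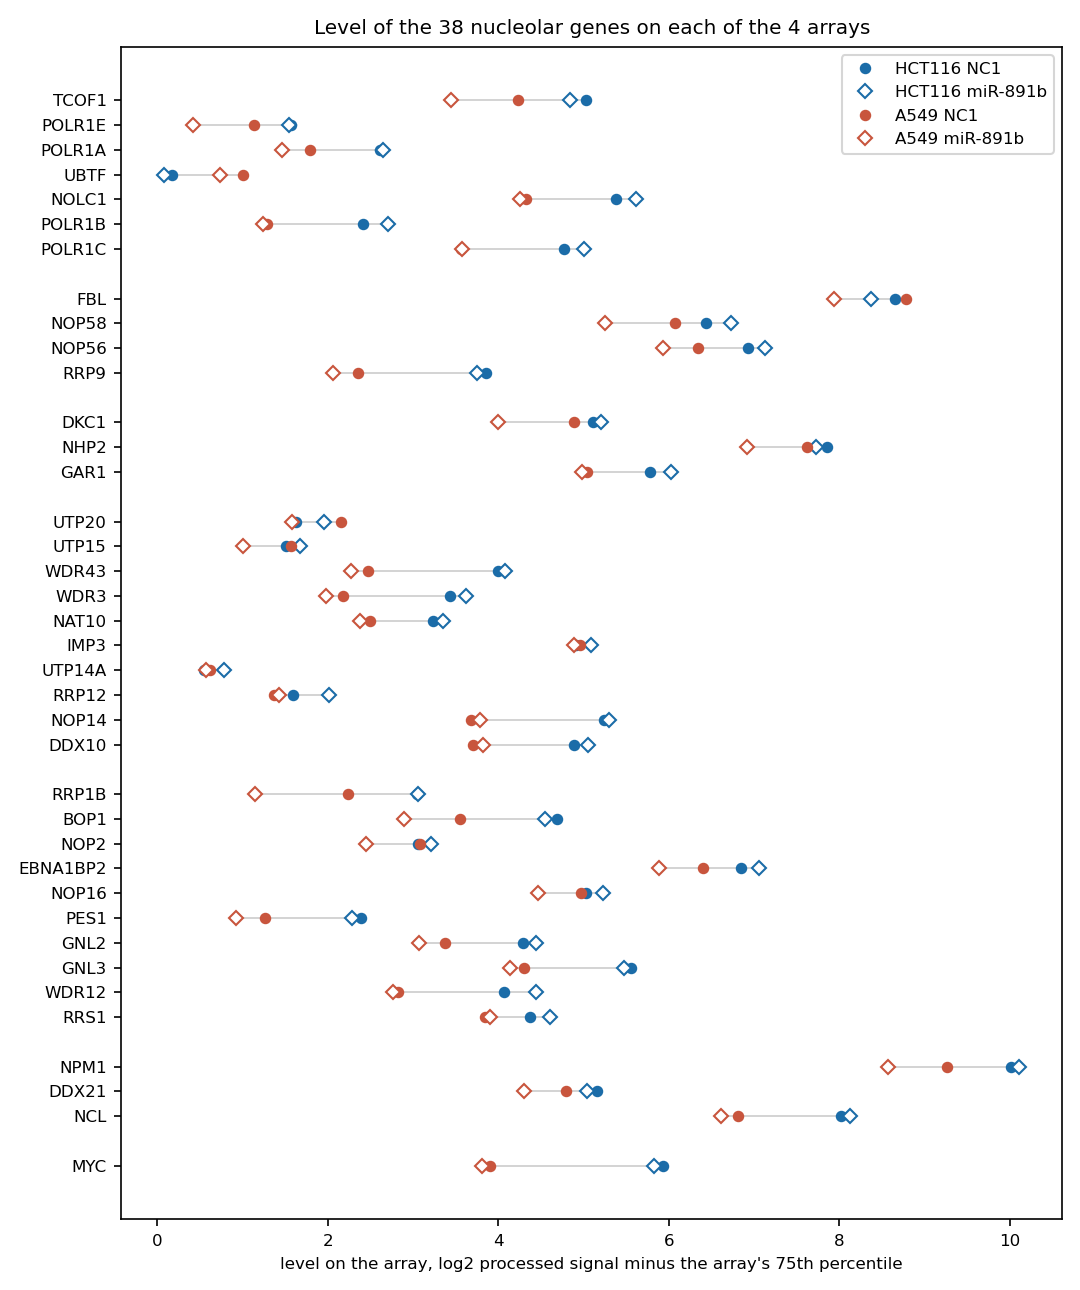
Level of each of the 38 genes on each of the 4 arrays (log2 processed signal minus the 75th percentile of the array, 1 array a group), with genes ordered by role and a line joining the lowest and the highest level. HCT116 symbols lie to the right of the A549 symbols for most genes, and MYC shows the widest gap between the lines.

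In A549, 33 of the 38 genes were lower with miR-891b than with NC1, against 55.6% of all measured genes. The median change was -0.30, against -0.059 over the 21337 measured genes. RRP1B, an assembly factor of the large subunit, was the 1 gene at least 2-fold lower, where 5.57% of all measured genes were. None was 2-fold higher, against 4.01% of all. At 1.5-fold, 10 of the 38 were lower and none higher, against 15.3% and 11.1% of all genes. Taken gene by gene, 16 changes were larger than 2 scanner-reported errors, all of them below 0, against 21.2% of all measured genes below and 15.5% above by that rule. The error of 1 difference of these genes was 0.20. That error describes the reading of a spot and not the spread between cultures.

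The RNA polymerase I genes had a median change of -0.27 in A549. TCOF1, which encodes treacle, a scaffold for polymerase I transcription, read 5.03 with NC1 and 4.84 with miR-891b in HCT116, and 4.24 and 3.44 in A549. Its probe lies at chr5:149779752-149779811 (hg19, the build of all probe positions here). The A549 miR-891b array was the lowest of the 4 for TCOF1, with a change of -0.80. POLR1E, a polymerase I subunit, changed by -0.72 and POLR1A, the largest subunit, by -0.33. POLR1B, POLR1C and NOLC1 lay within 0.07 of 0, at -0.05, 0.01 and -0.07. UBTF, which coats the active ribosomal RNA genes, read 0.17 and 0.08 in HCT116 and 1.01 and 0.74 in A549.

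The snoRNP proteins had the lowest medians of the role groups as drawn here in A549, -0.62 for the 4 box C/D proteins and -0.70 for the 3 box H/ACA proteins. SNU13, another box C/D protein, listed on the array as NHP2L1, changed by -0.42 in A549. NOP10, another box H/ACA protein, changed by -0.18. Both were counted in other lists and lay above these medians. The ranking therefore depends on which proteins a group holds, and it was not recalculated with them. FBL, the methyltransferase fibrillarin (probe at chr19:40325133-40325192), read 8.65 and 8.37 in HCT116 and 8.78 and 7.94 in A549. It was lower with miR-891b in both lines, by changes of -0.28 and -0.84. NOP58, a core protein of the same particles, read 6.44 and 6.73 in HCT116 and 6.07 and 5.25 in A549. Its probe spans chr2:203167727-203168114, a stretch longer than the probe. NOP56, the partner of NOP58, read 6.93 and 7.12 in HCT116 and 6.34 and 5.93 in A549. Both were higher with miR-891b in HCT116 and lower in A549. RRP9, found in the U3 particle, changed by -0.29 in A549.

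DKC1, the pseudouridine synthase dyskerin (probe at chrX:154005587-154005646), read 5.12 and 5.21 in HCT116 and 4.89 and 4.0 in A549. The A549 miR-891b array stood apart from the other 3 for this gene. NHP2, its partner in the particle, changed by -0.70 in A549, and GAR1, another partner, by -0.06.

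The 10 genes of the small subunit processome had a median of -0.089 in A549, near that of all genes. UTP20, a large scaffold protein, read 1.62 and 1.95 in HCT116 and 2.16 and 1.58 in A549. UTP15, of the subcomplex that joins the precursor first, read 1.51 and 1.68 in HCT116 and 1.57 and 1.01 in A549. WDR3, a WD-repeat protein of the processome, read 3.43 and 3.63 in HCT116 and 2.18 and 1.99 in A549. These 3 were lower with miR-891b in A549 and higher in HCT116. So were WDR43, at 0.09 in HCT116 and -0.20 in A549, NAT10, the acetyltransferase of ribosomal RNA, at 0.13 and -0.11, the U3 protein IMP3 at 0.17 and -0.07, and UTP14A at 0.23 and -0.04.

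DDX10, an RNA helicase, read 4.89 and 5.05 in HCT116 and 3.71 and 3.82 in A549 with the probe used. A second DDX10 probe gave an A549 change of -0.75, so the probes of this gene disagree. NOP14, an assembly protein, read 5.24 and 5.29 in HCT116 and 3.68 and 3.78 in A549. RRP12, needed for export of the subunits, read 1.60 and 2.01 in HCT116 and 1.37 and 1.43 in A549. These 3 genes were higher with miR-891b in both lines by small amounts.

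The 10 large subunit factors had a median of -0.42 in A549. RRP1B (probe at chr21:45115366-45115425) read 3.05 and 3.06 in HCT116 and 2.23 and 1.14 in A549. Its HCT116 arrays differed by 0.01, while its A549 arrays differed by -1.09, a level 2.13-fold lower with miR-891b. BOP1, which with PES1 and WDR12 forms the PeBoW complex, read 4.68 and 4.55 in HCT116 and 3.55 and 2.90 in A549. WDR12 read 4.07 and 4.45 in HCT116 and 2.83 and 2.77 in A549. The A549 changes of the complex were -0.65 for BOP1, -0.35 for PES1 and -0.06 for WDR12.

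NOP2, a methyltransferase of the large subunit RNA, read 3.06 and 3.21 in HCT116 and 3.08 and 2.45 in A549. NOP16 read 5.03 and 5.23 in HCT116 and 4.97 and 4.47 in A549. EBNA1BP2, an assembly factor printed in 10 spots, read 6.85 and 7.06 in HCT116 and 6.40 and 5.88 in A549. GNL2, a nucleolar GTPase, read 4.29 and 4.44 in HCT116 and 3.37 and 3.07 in A549. All 4 were lower with miR-891b in A549 and higher in HCT116. The spots of EBNA1BP2 varied around its A549 change by an SD of 0.037, which is spot-level spread within 1 pair of arrays. GNL3 (nucleostemin) and RRS1 changed by -0.17 and 0.06 in A549.

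The abundant nucleolar proteins had a median of -0.50 in A549. NPM1, the chaperone nucleophosmin, changed by -0.69, and its other probes by -0.57 and -0.60. NPM1 has many pseudogene copies, so its probes may collect signal from more than 1 locus. DDX21, a helicase that also binds polymerase I, changed by -0.50, and NCL (nucleolin) by -0.20.

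MYC was nearly level within each line. It read 5.94 and 5.83 in HCT116, a change of -0.11, and 3.90 and 3.81 in A549, a change of -0.09. The MYC probe is printed in 10 spots, and their differences had an SD of 0.052 over 9 spots in HCT116 and 0.070 over 10 in A549. The sign in A549 turned positive, to 0.05 and 0.06, under the quantile settings with and without normexp background correction, and in HCT116 it turned to 0.05 when the arrays were centred on spiked-in control probes.

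**Figure D2:**
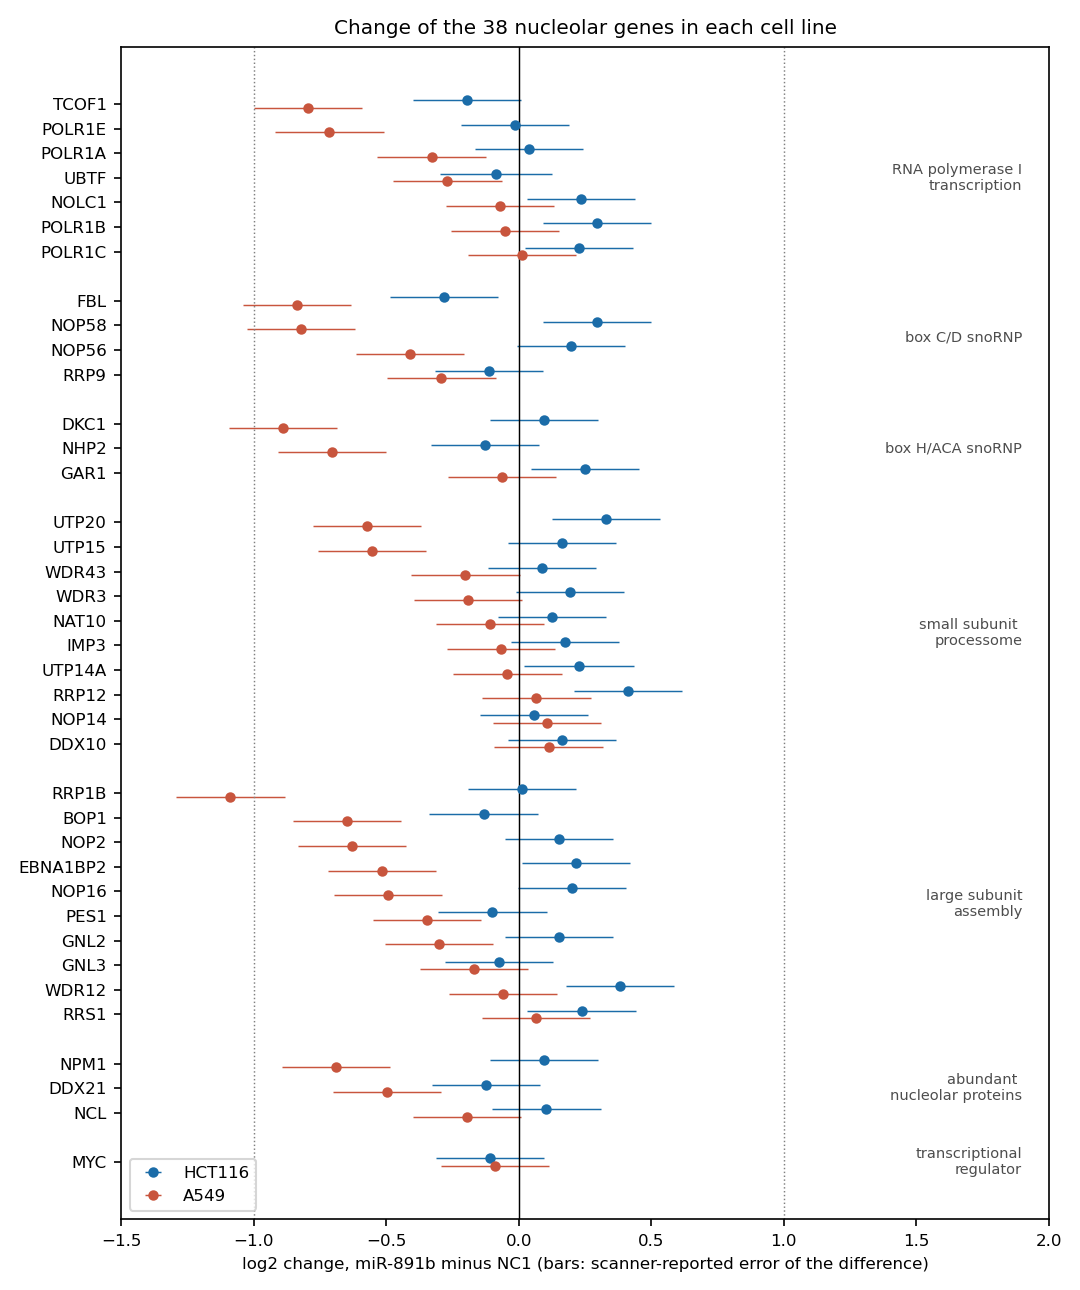
Change of each of the 38 genes (miR-891b minus NC1, log2, 1 array a group), with HCT116 in blue and A549 in red, bars of 1 scanner-reported error and dotted lines at 2-fold. RRP1B in A549, at -1.09, is the 1 gene past a dotted line, and the A549 point lies left of the HCT116 point for 36 of the 38 genes.

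In HCT116 the same genes differed less. The median change was 0.14, against -0.041 over the 19108 measured genes, of which 55.5% were lower. Of the 38 genes, 27 were higher and 11 lower, with a range of -0.28 (FBL) to 0.41 (RRP12). The split depends on the scaling, and 2 were lower with spike-in centring, which moved the median of all genes to 0.12. None was past 2-fold, where 0.843% of all genes were lower and 1.16% higher. None was past 1.5-fold either, where 5.65% of all genes were lower and 3.91% higher. RRP12 was the 1 gene whose change exceeded 2 scanner-reported errors, where 6.24% of all genes were higher and 10.4% lower by that rule. Its spot was among the 8 of the 38 that lay in an area of stray signal, 7 of them on the HCT116 miR-891b array and 1 on HCT116 NC1. Such an area has at least 10% of its otherwise dim spots well above background. The other 7 were POLR1E, UBTF, NOP56, UTP14A, PES1, GNL2 and DDX21.

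By role, all 10 processome genes were above 0 in HCT116, with a median of 0.17. The large subunit factors had a median of 0.15, with WDR12 at 0.38 and RRS1 at 0.24 as the highest. The polymerase I genes and the box C/D proteins both had medians of 0.04, the box H/ACA proteins 0.09 and the abundant nucleolar proteins 0.10. After FBL, the lowest changes were those of TCOF1 at -0.19 and BOP1 and NHP2 at -0.13 each. The sign for TCOF1 depends on the probe, since its further probes gave -0.27 and 0.08.

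The lines therefore differed in sign for many of these genes. Of the 38, 22 (57.9%) were higher with miR-891b in HCT116 and lower in A549, against 4205 of the 18065 genes measured in both lines (23.3%). None had the opposite pattern, 11 were lower in both lines and 5 higher in both. Of the 18065 genes, 3942 had the opposite pattern, 6110 were lower in both lines and 3808 higher in both. The A549 change was below the HCT116 change for 36 of the 38 (94.7%), against 54.3% of all genes. With spike-in centring these counts were 31 and 38, against 36.5% and 66.2% of all genes. The median of this difference was -0.37 over the 38 genes and -0.052 over all genes, and its extreme was -1.12 for NOP58. With 1 array per group these differences have no test of their own.

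A fit of both lines together, with terms for line and treatment, gave 1 residual degree of freedom. In limma, 0 of 22712 genes (0%) passed 0.05 after Benjamini-Hochberg adjustment, and 1215 had an unadjusted p under 0.05. None of the 38 reached the unadjusted level. FBL had the smallest p of the 38, with a mean change over both lines of -0.56 ± 0.27 (SE) and an adjusted p of 0.793 in limma. The spread in this fit combines the disagreement between the lines for a gene with a value shared over all genes, and nothing in the labels says whether the arrays come from separate cultures.

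The A549 change was set against genes of like signal, since in A549 the median change of all genes itself went down with level. The bands cut the 38 genes at the quartiles of their mean level, so each holds 9 or 10 of them. In the band of lowest mean level these had an A549 median of -0.34 and all genes -0.032. In the next bands the medians were -0.20 against -0.094, and -0.090 against -0.18. In the highest band they were -0.50 against -0.26. The nucleolar median was thus below that of all genes in 3 of the 4 bands and above it in the third. In HCT116 it was above in all 4 bands, at 0.10, 0.15, 0.06 and 0.19 against -0.043, -0.038, -0.033 and -0.081.

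**Figure D3:**
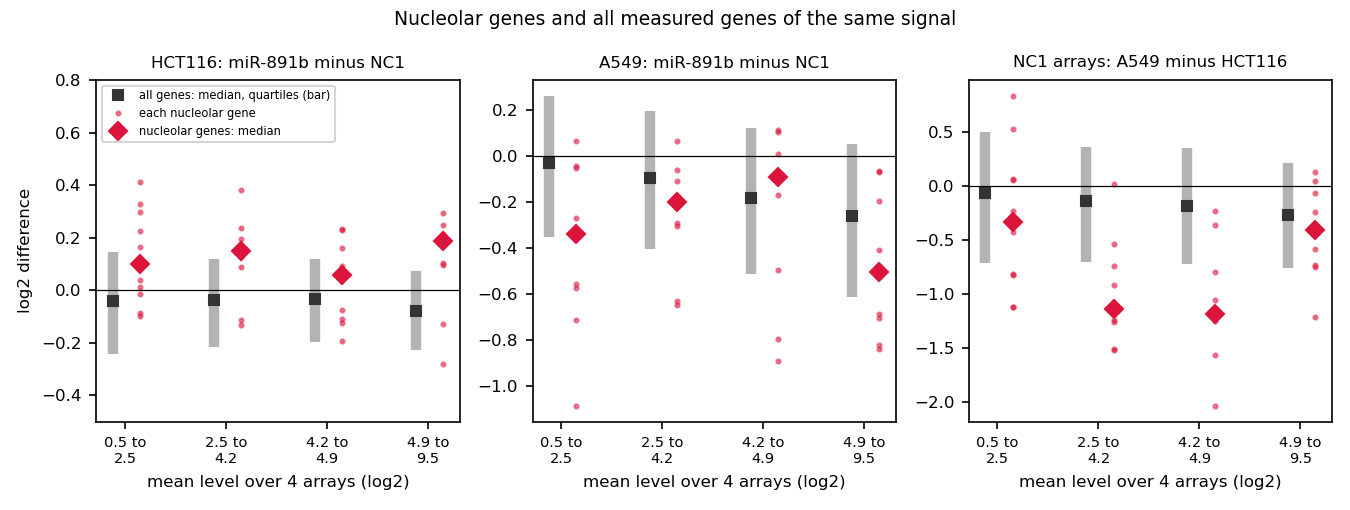
Log2 difference of the nucleolar genes (small points, median as a diamond) and of all measured genes (median as a square, quartiles as a bar) in 4 bands of mean level over the 4 arrays, for the change in HCT116, the change in A549 and the difference between the NC1 arrays; each panel has its own vertical scale. In A549 the diamonds lie below the squares in 3 bands, by the widest margin in the lowest band (-0.34 against -0.032).

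The control arrays differed between the lines by more than either treatment pair did, at this scaling. On NC1, A549 was below HCT116 for 31 of the 38 genes, with a median difference of -0.74 against -0.10 over 19219 genes. At least 2-fold lower in A549 were 14 of the 38, where 16.2% of all genes were, and none was 2-fold higher, against 11.1% of all. MYC stood lowest at -2.03, a level 4.10-fold lower in A549, with both A549 arrays (3.90 and 3.81) below both HCT116 arrays (5.94 and 5.83). NOP14 (probe at chr4:2939677-2939736) followed at -1.56 and WDR43 (probe at chr2:29170870-29170929) at -1.52, the latter reading 3.99 and 4.08 in HCT116 and 2.47 and 2.27 in A549. For each of these 3 genes, picked for the lowest differences, the levels of the lines did not overlap. The share of all genes without overlap was not counted.

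The difference was uneven within roles. The other genes past 2-fold were POLR1B, POLR1C, NOLC1, RRP9, WDR3, DDX10, BOP1, PES1, WDR12, GNL3 and NCL, at -1.06 (NOLC1) to -1.51 (RRP9). The calls of DDX10, POLR1B and POLR1C depend on the probe. The second DDX10 probe gave 0.43, that of POLR1B -0.89 and the others of POLR1C 0.04 and -0.90. The second probes of WDR3 and NOP14 stayed past 2-fold, at -1.16 and -1.18. A further TCOF1 probe was past 2-fold at -1.47, where the chosen one gave -0.79. Higher in A549 were UBTF by 0.84, UTP20 by 0.53 and FBL by 0.13, and 4 others (IMP3, UTP14A, UTP15 and NOP2) by 0.02 to 0.07. Among the roles with several genes, the box H/ACA proteins had the median nearest to 0, at -0.24, and the large subunit factors the lowest, at -0.87. Centring on the spiked-in controls moved the median of all genes between the lines from -0.10 to 0.52, and that of the 38 to -0.12, with 1 gene 2-fold lower and 2 higher. Relative to all genes, the 38 stood lower by a difference of -0.64 in the main setting, and by -0.65 to -0.53 over all scalings tried.

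Several genes around MYC were looked at as a list of 14, of which MYCN had signal near background on every array. Between the NC1 arrays the other 13 had a median difference of -0.28. Of them, 3 were 2-fold lower in A549 and 1 higher, where 16.2% and 11.1% of all genes were. The lower ones were MXI1, a partner of MAX that opposes MYC, at -2.73, MYCL, a relative of MYC, at -1.62 and ZBTB17 at -1.12. The higher one was MXD4, another MAX partner that opposes MYC, at 1.15. In A549, MYCL read -0.72 with NC1 and -2.16 with miR-891b. MXD3, another MAX partner, read 4.20 and 3.12 (change -1.08). These 2 were at least 2-fold lower, where 5.57% of all genes were, and the list's A549 median was -0.050. Among its other genes MXD1 changed by 0.95, MAX itself by 0.83, MXD4 by 0.78 and MNT by 0.58, genes singled out after their values were seen. In HCT116 the list's median was -0.14 and none was past 2-fold.

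Genes of the same pathway beyond the 38 were taken from 5 lists with 156 genes, all of them measured. In A549 their median change was -0.29 and 134 were below 0, against 55.6% of all measured genes. At least 2-fold lower were 7 and none was 2-fold higher, where 5.57% and 4.01% of all genes were. In HCT116 the median was 0.083, 101 were above 0 and none was past 2-fold, while 55.5% of all genes were below 0. On the NC1 arrays A549 was lower by a median of -0.52, with 33 genes 2-fold lower and 1 higher, against 16.2% and 11.1% of all genes.

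By list, the A549 medians were -0.46 for 17 other polymerase I genes, -0.33 for 19 genes of snoRNP assembly and RNA modification and -0.22 for 46 other processome genes. They were -0.26 for 57 other large subunit factors and -0.32 for 17 genes of the RNA exosome and exonucleases. The exosome, which trims the precursor, held the 2-fold lower genes EXOSC8, which read 4.89 with NC1 and 3.35 with miR-891b, and EXOSC9, with 3.93 and 2.83. POLR2K, a small subunit shared by the nuclear RNA polymerases, read 3.12 and 1.45, the lowest change of the 5 lists (-1.67). The others past 2-fold were WRAP53 (-1.16), RRP7A (-1.02), PUM3, listed on the array as KIAA0020 (-1.02), and NOPCHAP1, listed as C12orf45 (-1.0). None of these 7 was past 2-fold in HCT116, where their changes ran from -0.50 (RRP7A) to 0.14 (PUM3).

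**Figure D4:**
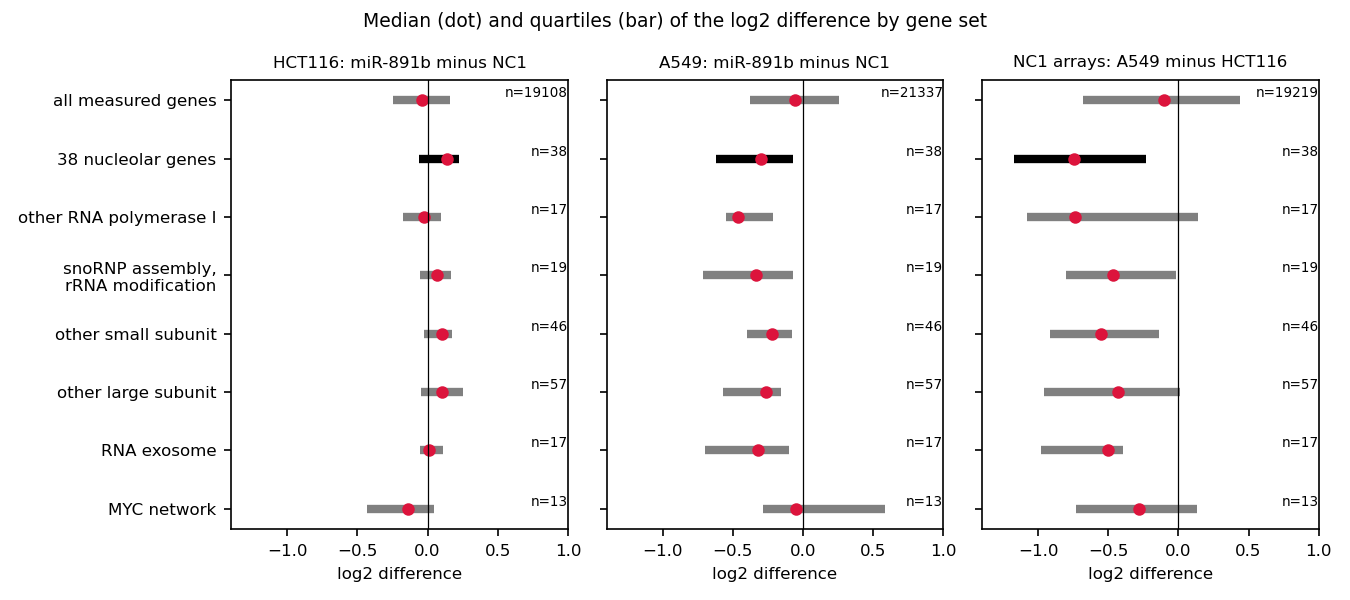
Median (dot) and quartiles (bar) of the log2 difference for all measured genes, the 38 nucleolar genes, 5 lists of other genes of the pathway and the MYC network, with the number of genes beside each. In A549 the 38 genes and the 5 pathway lists have medians of -0.46 to -0.22, left of all measured genes at -0.059.

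Markers of other states were also looked at, in lists chosen with earlier results of these data known. A list of 20 G2/M and mitosis genes had an A549 median of -1.72, against 0.050 in HCT116 and 0.014 between the NC1 arrays. In A549 all 20 were at least 2-fold lower, where 5.57% of all measured genes were. The part of cell cycle state in the A549 change of the 38 genes was not tested. The line labels were checked with markers. On the NC1 arrays the 5 A549 markers that could be compared were higher in A549 (median 7.89) and the 4 HCT116 markers lower (median -5.07). LGALS4, the remaining HCT116 marker, went against the label: it read 0.64 and 0.03 in A549, and -4.47 and -5.31 in HCT116, where it was not well above background. AKR1B10, an A549 marker, read -2.29 with NC1 and 2.18 with miR-891b in HCT116, while AKR1C1 and ALDH1A1 stayed at -2.86 and -2.94, and at -4.69 and -5.17. Of 8 fibroblast markers, COL1A2, COL3A1, DCN and FAP did not pass the background test on any of the 4 arrays. COL1A1 and PDGFRB were measured in both lines (COL1A1 at 0.60 and 0.01 in A549), and in A549 LUM read 1.03 and 3.17 and THY1 -1.47 and -2.51. Between 44.7% and 50.3% of probes were well above background on an array.

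Promoters were searched because MYC acts through the E-box and is, of the 38, the gene with the largest difference between the NC1 arrays. RefSeq windows of 250 bases before to 50 after an annotated start (GRCh38.p14) were at hand for 29 of the 38 genes. Those of BOP1, MYC, NOLC1, NOP58, POLR1E, RRP12, RRP1B, RRS1 and TCOF1 were not used here. The motif CACGTG, which reads the same on both strands, occurred in 14 of the 29 (48.3%), against 8.77% of 27305 genes and 10.9% of 15843 protein-coding genes, where a gene counted when any of its windows held it. The 14 genes had 15 E-boxes, 13 of them between 150 bases before and 50 after the start. The sites of genes named above are shown, on the strand of the gene, with the E-box in capitals.
FBL, chr19:39846356-39846385, minus strand: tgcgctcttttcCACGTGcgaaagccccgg
GNL2, chr1:37595917-37595946, minus strand: gtacgtcgtgcaCACGTGgtccggcgtggt
NOP14, chr4:2963374-2963403, minus strand: tccgcggcccggCACGTGtcttagggtagc
NOP2, chr12:6568242-6568268, minus strand: aggtccggattgCACGTGgagggccgc
UTP20, chr12:101280083-101280112, plus strand: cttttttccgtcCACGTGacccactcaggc
WDR43, chr2:28894658-28894687, plus strand: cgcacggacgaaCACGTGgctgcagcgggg
EBNA1BP2, chr1:43172241-43172260, minus strand: gcgattcggtggCACGTGga
EBNA1BP2, chr1:43172790-43172819, minus strand: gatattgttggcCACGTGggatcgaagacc
In UTP20 the E-box begins 10 bases before the start, in WDR43 and GNL2 4 bases after it and in FBL 7 bases after it. EBNA1BP2 has 2 annotated starts, with an E-box in each window, at position 43 from one and -237 from the other. The remaining 7 genes with an E-box were DDX21, GAR1, GNL3, NAT10, PES1, RRP9 and UTP14A.

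**Figure D5:**
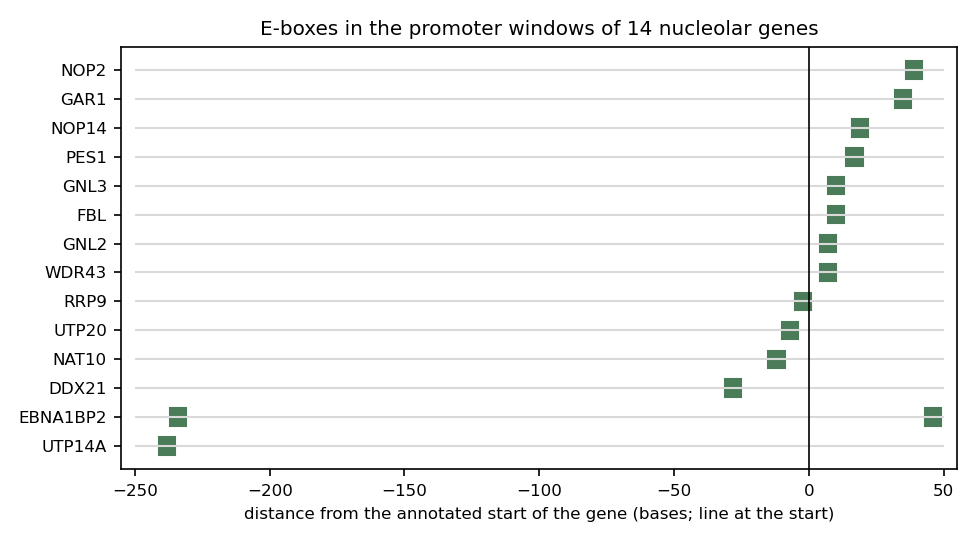
Position of each E-box (green block, 6 bases) relative to the annotated start of the gene for the 14 nucleolar genes that hold one, in windows from 250 bases before to 50 after the start (grey lines). Of the 15 sites, 13 lie between 150 bases before and 50 after the start, and those of UTP14A and 1 of the 2 of EBNA1BP2 lie farther before it.

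The genes with and without an E-box did not separate by their values. The 14 with one and the 15 with a window and none had medians of -0.74 and -0.75 between the NC1 arrays, -0.30 and -0.27 for the A549 change and 0.11 and 0.16 for the HCT116 change. The E-box was also present in 16 of 40 other processome genes (40%) and 17 of 52 other large subunit factors (32.7%). It was in 1 of 15 other polymerase I genes, 0 of 15 genes of snoRNP assembly and RNA modification and 2 of 14 exosome genes. Beyond the pathway it was in 3 of 13 genes of the MYC network (23.1%) and 4 of 17 G2/M and mitosis genes (23.5%). Other motifs were counted on both strands in the same way, and none of their letters contain CACGTG. CCGGAAGT, bound by ETS-type factors, was in 5 of the 29 (17.2%) against 6.97% of protein-coding genes. It was in 20 of 52 other large subunit factors (38.5%), 10 of 40 other processome genes (25%) and 5 of 15 other polymerase I genes (33.3%). Among genes of snoRNP assembly and RNA modification 2 of 15 held it, and 1 of 14 exosome genes. GGGCGG was in 72.4% against 64.3%, CCAAT in 44.8% against 42.1% and TATAAA in 3.45% against 12.4%. A match is a description of letters and shows no binding.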

How the data were processed

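Total RNA was labelled with Cy3 and read with Agilent Feature Extraction 11.5.1.1, per the submitters' processing notes. The deposited intensity values (processed signals) are background-subtracted and detrended within an array, per the file headers, and are not scaled between arrays. The authors' deposited log2 values matched the processed signal on the log2 scale less each array's 75th percentile, with a median absolute difference of at most 0.0069. Their column medians were -3.80, -3.60, -3.71 and -3.68.

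Here control and outlier spots were left out, spots of a probe averaged, log2 taken and the array's 75th percentile over 58201 gene probes (54.9 to 74.8 as a signal) subtracted. A gene entered a comparison when well above background on both arrays. With 1 array per group, called means at least 2-fold. Levels of different probes were not compared. The additive fit used limma 3.58.1 in R 4.3.3, and other steps used Python 3.11.15. Steps across many genes were tested on simulated data. Per-array values are given for genes past 2-fold, the 3 lowest and 3 highest differences of each comparison, genes of opposite sign in the lines with both sizes over 2 spot-level SDs, and MYC. Genes of other lists are named where past 2-fold in either line, at most 3 in each direction for a list. Outside that rule, further genes are named from the MYC network and the cell type markers, and NOP10 and SNU13. The 38 genes and all lists were chosen with earlier results of these data known. Alternatives were other background corrections and scalings, the authors' values, means over probes, and other filters and thresholds. The number of arrays limits the precision.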

Additional observations from a re-analysis of the deposited data

Results flagged for a closer look

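In HCT116 the 38 genes had a median change of 0.14 and in A549 of -0.30, so the A549 median lay below the HCT116 median by a difference of -0.44, and the signs differed. Opposite signs were also seen for 9 single genes, with both changes larger than 2 spot-level SDs. Those bars were 0.12 in HCT116 and 0.14 in A549, and the share of all genes past both was not counted. In HCT116 the 9 changes did not exceed 2 scanner-reported errors, as only that of RRP12 did. The A549 change minus the HCT116 change was -1.12 for NOP58, -0.90 for UTP20, -0.78 for NOP2, -0.73 for EBNA1BP2, -0.72 for UTP15, -0.70 for NOP16, -0.61 for NOP56, -0.45 for GNL2 and -0.39 for WDR3. These differences were not tested, since each group is 1 array. The spots of NOP56 and GNL2 lay in areas of stray signal on an HCT116 array.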

How the results depend on the processing

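The medians of the 38 genes kept their sign in all settings. In HCT116 the median of 0.14 moved to 0.20 with quantile normalization and 0.30 with centring on 7 spike-in probes. In A549 the median of -0.30 moved to -0.17 with normexp and quantile normalization and -0.21 with quantile normalization alone, and the count of 1 gene at least 2-fold lower to 0 with normexp and quantile normalization together and to 10 at 1.5-fold. Between the NC1 arrays the median of -0.74 moved to -0.55 with normexp and quantile normalization, -0.60 with quantile normalization, -0.66 with centring on the median of measured probes and -0.12 with spike-in centring. The count of 14 lower genes moved to 5 with normexp and quantile normalization and to 1 with spike-in centring, and the count of 0 higher genes to 2 with the latter. The cause was not tested. Spike-in centring raised the median of all genes to 0.12 in HCT116 and 0.52 between the lines. Relative to all genes, the 38 stood at 0.17 to 0.23 in HCT116, -0.24 to -0.17 in A549 and -0.65 to -0.53 between the lines. Of all called genes, 42.0% were lower in HCT116 and 59.4% between the lines, against 18.8% and 20.5% with spike-in centring, and 30.8% in HCT116 with normexp and quantile normalization. Of 185 values of single named genes per comparison, 6 changed sign in A549, 4 in HCT116 and 9 between the lines. Without the filter on dim probes the additive fit called 6 of 43308 genes, none of the 38 among them. Over the scalings, 26 to 33 of the 38 were below 0 in A549, 2 to 11 in HCT116 and 21 to 31 between the lines. Opposite signs in the lines, recounted after seeing the data, were held by 19 to 31 of the 38. The additive fit has the line as a term and so compares arrays within a line. No further paired analysis was possible because each group is 1 array.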

Other observations

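Other probes of the same genes gave a check on the probe chosen. For 8 of the 38 genes, 11 further probes were well above background on all 4 arrays. Of these, 8 had the sign of the chosen probe in HCT116, 8 in A549 and 9 between the NC1 arrays. Within 0.25 of it were 9, 9 and 6. Those of the other sign in HCT116 were probes of TCOF1 (0.08), POLR1B (-0.11) and NPM1 (-0.03). The chosen probes gave -0.19, 0.30 and 0.10. POLR1B and NPM1 are among the 22 genes higher in HCT116 and lower in A549 by the chosen probe. TCOF1 had 2 further probes, with A549 changes of -1.20 and -0.75 beside -0.80 for the chosen one, and NOP56 had 1 with -0.30 beside -0.41. At least 1.5-fold lower in A549 were also 35 of the 156 other genes of the pathway, and none was 1.5-fold higher, against 15.3% and 11.1% of all measured genes.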
